A study of Mus musculus with 4 samples.

Results

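A set of 9 complement genes, of the 33696 gene features counted, was followed through the nuclei of brain lesions and of the surrounding parenchyma at 21 days post-injury (dpi). The genes were chosen by name for their place in the complement system, with earlier results of these data known. They were C1qa, C1qb and C1qc, C3 and C4b, C6, Serping1, C3ar1 and C5ar1. Each had UMIs (unique molecular identifiers, which mark single captured transcripts) in the lesion of both libraries. The injury was a photothrombotic (PT) lesion of the cortex in mice. One library was labelled wild type and is called control-labelled here. The other, called cKO-labelled, was labelled as Cxcl12-cKO, from mice that carried Col1a2(creER), an inducible Cre recombinase driven by a fibroblast collagen promoter, with Cxcl12(flox). The paper describes tamoxifen, given from the day of injury on, as the inducer of Cxcl12 loss in this cross. Its methods describe controls of such strains as tamoxifen-induced where relevant. Per the study's methods, mice were adults on a C57BL/6 background. All carried a PT lesion, and the exact ages of these animals are not stated in the labels. Each library pooled 1 male and 1 female mouse, with nuclei of lesion and parenchyma tagged separately and mixed at 75% and 25%.

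Complement is a cascade of secreted proteins that marks and attacks targets. C1q, built from the products of C1qa, C1qb and C1qc, starts the classical pathway, which cleaves C4 and then C3, the step at which the pathways meet. C6 belongs to the terminal group that forms the membrane attack complex, Serping1 encodes the inhibitor of the C1 proteases, and C3ar1 and C5ar1 encode receptors for the small fragments released from C3 and C5. In the brain, microglia are the known main source of C1q, and reactive astrocytes are known to raise C3.

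There was 1 library per genotype, and no test between genotypes was made. The 2 mice of a genotype shared that library and were told apart only by sex-linked UMIs. All intervals below are 95% intervals for counting error only, and they do not cover differences between mice or libraries. Levels are CPM, the UMIs of a gene summed over the nuclei of a group and scaled to all UMIs of that group. Counts were of nuclear RNA near the 3′ end, and a group with fewer expressing nuclei cannot be told apart from a group with less RNA per nucleus except by the share of nuclei with a UMI. After filtering, 21743 of 23489 barcodes were kept as nuclei, with median depths of 2962 and 2975 UMIs in the 2 lesions and 15915 and 16648 UMIs in the 2 parenchymas. Lesion barcodes shared between libraries numbered 22. UMIs specific to both sexes occurred in 9.75% to 14.3% of the nuclei of a region. The targeted gene went against the label: in lesional fibroblast-like nuclei Cxcl12 stood at 106 CPM (interval 101 to 112) in the control-labelled library and at 215 CPM (208 to 223) in the cKO-labelled library. Which part of Cxcl12 is deleted was not stated, so 3′ counts cannot check the deletion, and every direction given here holds between libraries by their labels.

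The genes C1qb and C1qc are neighbours on mouse chromosome 4, and their levels rose and fell together across cell groups (below). Their promoters are shown for that reason. RefSeq promoters of build GRCm38.p6 were at hand for 6 of the 9 genes, and C1qa, C4b and Serping1 had none in the table. The windows ran from 250 bases before to 50 bases after the transcription start. Shown are the 250 bases before it, at chr4:136886201-136886450 (minus strand) for C1qb and chr4:136892915-136893164 (minus strand) for C1qc, with the motif GAGGAA or its reverse complement in capitals.
C1qb: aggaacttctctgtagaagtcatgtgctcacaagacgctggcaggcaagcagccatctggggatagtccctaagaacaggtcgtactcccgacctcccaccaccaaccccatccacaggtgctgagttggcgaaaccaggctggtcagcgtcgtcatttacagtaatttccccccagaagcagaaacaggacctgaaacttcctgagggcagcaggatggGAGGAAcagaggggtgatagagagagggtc
C1qc: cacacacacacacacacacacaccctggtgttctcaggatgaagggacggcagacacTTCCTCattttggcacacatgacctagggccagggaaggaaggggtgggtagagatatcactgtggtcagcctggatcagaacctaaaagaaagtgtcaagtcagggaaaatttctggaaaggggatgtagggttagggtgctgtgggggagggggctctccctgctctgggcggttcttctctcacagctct
GAGGAA is a core of sites bound by PU.1, a transcription factor of myeloid cells. It occurred once in C1qb, starting at position -30, and once in C1qc, starting at position -193 on the other strand, counted from the start. It was found in 2 of the 6 promoters and in 28.3% of all 32851 promoters of the same length, on either strand. TTCNNNGAA, the palindrome bound by STAT factors, was found in 0 of the 6 promoters and in 8.30% of all promoters. These matches describe letters in a window and do not show binding.

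The 3 C1q genes were read mainly from myeloid-like nuclei. Myeloid-like nuclei were 22.1% of lesional nuclei in the control-labelled library and 29.1% in the cKO-labelled library, yet they held 84.5% and 86.1% of lesional C1qa UMIs, 84.8% and 85.6% of C1qb UMIs and 85.0% and 87.3% of C1qc UMIs. C1qa, which encodes the A chain, was at 444 CPM (426 to 464) in the control-labelled library and at 274 CPM (262 to 286) in the cKO-labelled library. C1qb was at 403 CPM (385 to 421) and 304 CPM (291 to 317), and C1qc was at 251 CPM (237 to 266) and 159 CPM (149 to 168). All other lesional classes of at least 50 nuclei per library were at 107 CPM or less for each chain.

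**Figure D1:**
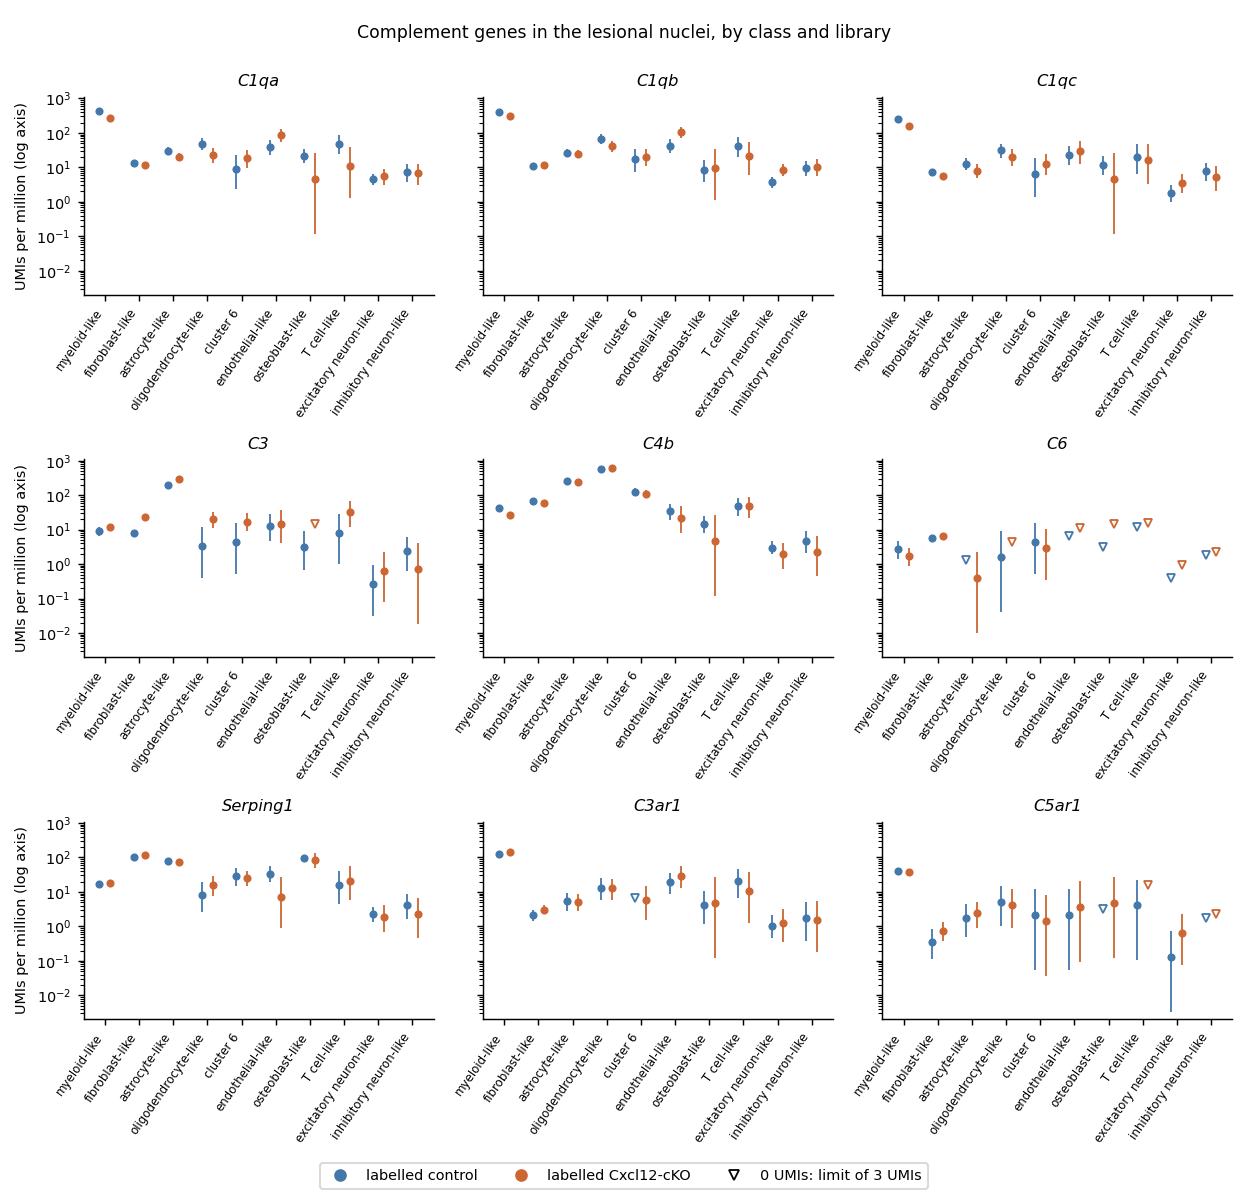
CPM (log axis) of each complement gene in the lesional nuclei of 10 classes, by library, with 95% Poisson intervals; open triangles mark 0 UMIs, drawn at the level that 3 UMIs would give. C1qa, C1qb, C1qc, C3ar1 and C5ar1 peak in myeloid-like nuclei, C3 in astrocyte-like nuclei and C4b in oligodendrocyte-like nuclei.

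Low levels of C1q were found in other classes. Fibroblast-like nuclei carried C1qa at 13.3 and 11.9 CPM in the control- and cKO-labelled libraries, and astrocyte-like nuclei at 30.5 and 20.3 CPM. Parenchymal excitatory neuron-like nuclei, not a known main source of C1q, carried C1qa at 1.61 and 2.85 CPM, with median depths of 17478 and 18410 UMIs against 2174 and 2379 UMIs in lesional myeloid-like nuclei. After thinning each nucleus to 1000 UMIs, 1.58% and 1.23% of lesional fibroblast-like nuclei had a C1qa UMI, against 0.398% and 1.72% of lesional excitatory neuron-like nuclei and 22.1% and 17.5% of myeloid-like nuclei. Summed over the 8 myeloid markers, fibroblast-like nuclei stood at 189 and 207 CPM and myeloid-like nuclei at 5068 and 4483 CPM. The part of free RNA or doublets in these low levels was not tested.

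Within the lesional myeloid-like nuclei, C1q was spread unevenly. Subcluster 1, called monocyte-like from its markers and led by Ly6c2, Hp and Ifitm3, held 55 and 68 nuclei, or 3.07% and 2.95% of the class. It held 37.9% of the C1q UMIs of the class in the control-labelled library and 27.5% in the cKO-labelled library. C1qa stood there at 4084 CPM (3818 to 4363) and 2986 CPM (2759 to 3225). The next levels were far lower, at 362 and 276 CPM in subcluster 2, which was homeostatic-microglia-like, and at 319 and 369 CPM in subcluster 3, which was border-associated-macrophage-like.

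The nuclei of subcluster 1 also stood apart in RNA content. Ribosomal protein genes made up 8.70% and 8.91% of their UMIs, against 0.33% to 1.10% in the other myeloid-like subclusters. Single nuclei had up to 170 and 184 UMIs of C1qa, and the 10 nuclei with the most C1qa UMIs held 36.1% and 29.9% of the class total. Of these 10, 8 and 7 were in subcluster 1. Whether its barcodes held nuclei or whole cells was not tested. At resolution 0.5 the subcluster with the most C1qa, led by Hp, Cstb and Ccr2, was left unnamed by the marker rule. Its best list there was that of disease-associated microglia and scar-associated macrophages, with 7 of 8 markers up. The name monocyte-like thus depended on the clustering. So did the name of subcluster 2, which held 1708 nuclei. At resolution 0.5 the subclusters named homeostatic-microglia-like held 912 and 24 nuclei. Dendritic-like nuclei (subcluster 5, 33 and 47 nuclei) had 1 and 4 UMIs of C1qa, 0 UMIs of C3ar1 and 0 UMIs of C5ar1 in either library, which allows up to 46.5 and 29.1 CPM for the receptors.

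The proportion of the 3 chains differed between myeloid states. C1qb made up 44.8% (41.1% to 48.5%) and 53.2% (50.1% to 56.3%) of C1q UMIs in subcluster 0, which was left unnamed and was led by Mamdc2, Adra1a and Fabp4. C1qb made up 35.1% (33.0% to 37.2%) and 33.9% (31.5% to 36.5%) in subcluster 1. In parenchymal myeloid-like nuclei it was 26.4% (21.8% to 31.5%) and 29.4% (24.2% to 35.0%). Subcluster 0 had the most Gpnmb, a gene of lipid-laden macrophages, at 2532 and 3319 CPM, against 70.1 and 121 CPM in parenchymal myeloid-like nuclei. Subcluster 2 also carried Gpnmb, at 1501 and 1885 CPM, so its name homeostatic-microglia-like does not mean that Gpnmb was low. C1qc made up between 20.7% and 27.3% of C1q UMIs in subclusters 0 and 1 and in parenchymal myeloid-like nuclei. The subclusters were made without the complement genes.

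Among myeloid-like nuclei, C1q was higher in the parenchyma than in the lesion. Parenchymal myeloid-like nuclei were few (32 and 46), below the minimum of 50 set for this comparison, so their values are given without a call. C1qa was at 1938 CPM (1655 to 2256) and 1265 CPM (1053 to 1507), C1qb at 1039 and 860 CPM, and C1qc at 957 and 800 CPM. The log2 ratios of lesion over parenchyma were -2.13 (-2.35 to -1.89) and -2.21 (-2.47 to -1.94) for C1qa, -1.38 and -1.51 for C1qb, and -1.94 and -2.34 for C1qc. In both libraries each chain was lower in the lesion. P2ry12, a homeostatic microglial gene, moved the same way, at 701 and 972 CPM in the parenchyma and 220 and 158 CPM in the lesion. The ribosomal share was 2.96% and 1.25% in parenchymal and 0.851% and 0.742% in lesional myeloid-like nuclei, and its part in these ratios was not tested.

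**Figure D2:**
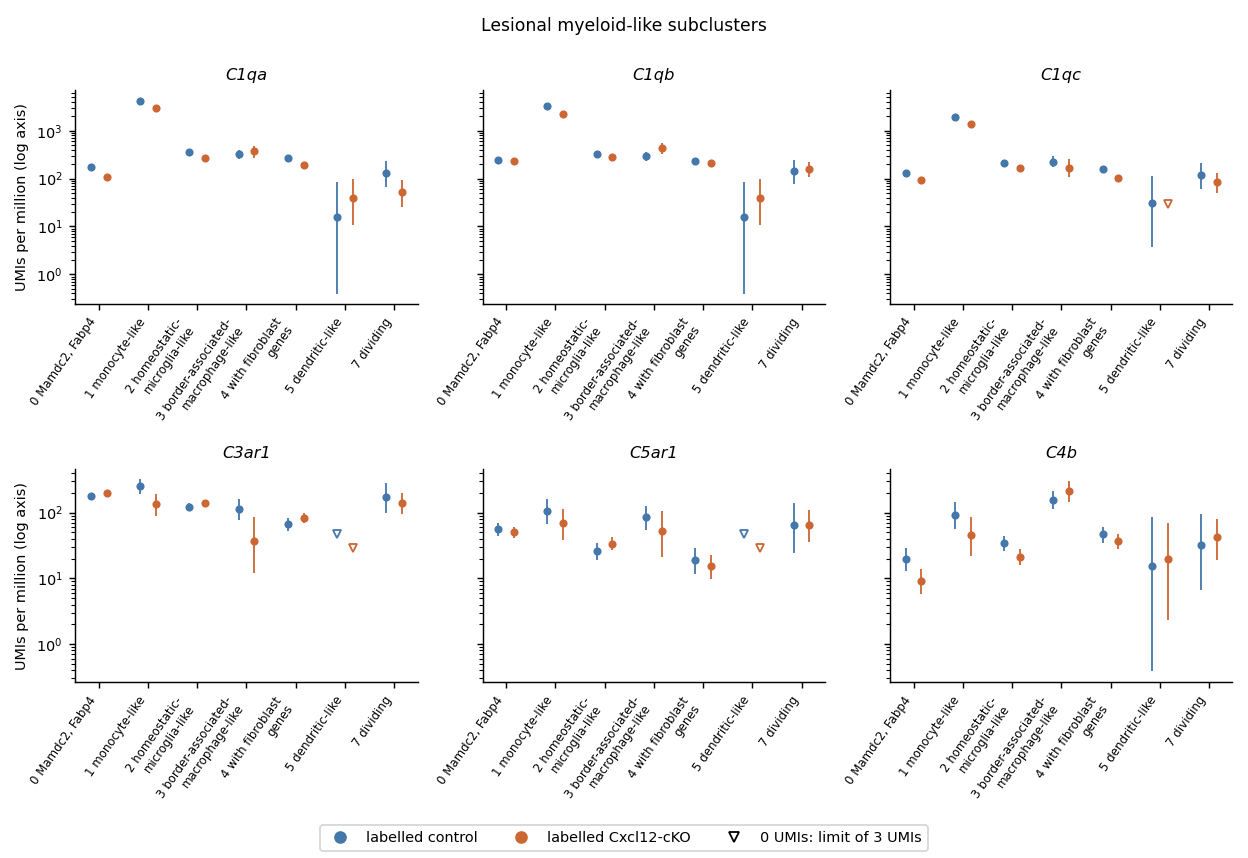
CPM (log axis) of C1qa, C1qb, C1qc, C3ar1, C5ar1 and C4b in 7 lesional myeloid-like subclusters, by library, with 95% Poisson intervals; subcluster 6, with 9 and 22 nuclei, is not drawn. Subcluster 1 stands above the others for the 3 C1q genes, and subcluster 3 for C4b.

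Between the libraries, the C1q genes were lower in myeloid-like cKO-labelled nuclei. The log2 ratio of cKO-labelled over control-labelled levels was -0.70 (-0.79 to -0.61) for C1qa, -0.41 (-0.50 to -0.32) for C1qb and -0.66 (-0.78 to -0.54) for C1qc. Calling a gene at a change of at least 1.5-fold, 4 of the 9 members were called in myeloid-like nuclei (C1qa, C1qc, C4b and C6, all lower), against 10.7% of the 14796 genes tested with at least 20 UMIs. C6 was called on only 13 and 12 UMIs, and its interval spanned 0. The median log2 ratio was -0.41 for the members and -0.02 for all genes tested. Markers of fibroblasts summed to 1088 and 684 CPM and markers of neutrophils to 658 and 292 CPM in the myeloid-like nuclei of the control- and cKO-labelled libraries, and their part in these ratios was not tested.

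The mice carried this difference unequally. Nuclei were assigned to a mouse by sex-linked UMIs, and nuclei with none or with those of both sexes were left out. Of 1790 control-labelled myeloid-like nuclei, 692 were assigned to the female and 536 to the male. Of 2305 cKO-labelled ones, 1133 were assigned to the female and 532 to the male. C1qa was at 684 CPM (647 to 722) in the control-labelled female, 285 CPM (258 to 313) in the control-labelled male, 270 CPM (253 to 289) in the cKO-labelled female and 198 CPM (178 to 220) in the cKO-labelled male. The control-labelled female stood far above the other 3 mice, of which the control-labelled male and the cKO-labelled female had overlapping intervals. The log2 ratio was -1.34 between the females and -0.52 between the males for C1qa, -0.87 and -0.17 for C1qb, and -1.17 and -0.58 for C1qc.

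Leaving out subcluster 1 lowered all these levels. C1qa then stood at 347 and 215 CPM in the control-labelled female and male and at 202 and 168 CPM in the cKO-labelled female and male. The log2 ratio between libraries was then -0.55 for C1qa, -0.15 for C1qb and -0.51 for C1qc, so that neither C1qa nor C1qc was called and 2 of the 9 members, C4b and C6, were. Within single subclusters, C1qa was lower in the cKO-labelled library in subclusters 0, 1, 2 and 4 (log2 ratios -0.71, -0.45, -0.39 and -0.48) but not in border-associated-macrophage-like subcluster 3 (0.22, -0.32 to 0.73). Subcluster 4 was unnamed and led by fibroblast genes, and 28.6% and 33.2% of its nuclei had UMIs of both sexes. C1qb was at 293 and 428 CPM in subcluster 3, a log2 ratio of 0.55 (0.03 to 1.06).

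The receptor genes were myeloid too. Myeloid-like nuclei held 88.4% and 91.9% of lesional C3ar1 UMIs and 91.8% and 91.2% of C5ar1 UMIs. C3ar1, the receptor for C3a, was at 128 CPM (118 to 139) and 142 CPM (133 to 151), and C5ar1, the receptor for C5a, at 39.8 CPM (34.3 to 45.8) and 36.9 CPM (32.5 to 41.7) in the control- and cKO-labelled libraries. The log2 ratios between libraries were 0.14 (-0.0045 to 0.29) and -0.11 (-0.38 to 0.17), and neither receptor was called. In the 4 mice C3ar1 ranged only from 134 to 153 CPM and C5ar1 from 36.1 to 47.0 CPM, with the genotypes overlapping.

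Across the myeloid states the receptors were in part ordered like C1q. In subcluster 1 C3ar1 was at 252 CPM (189 to 328) and 134 CPM (90.04 to 193), and C5ar1 at 107 CPM (68.0 to 161) and 69.5 CPM (38.9 to 115), the highest C5ar1 of the subclusters in both libraries, though the intervals overlapped those of subcluster 3 (85.3 and 51.7 CPM) and of subcluster 7 (65.3 CPM in both libraries). C5ar1 was at 56.1 and 50.0 CPM in subcluster 0 and 26.1 and 33.5 CPM in subcluster 2. C3ar1 was at 176 and 197 CPM in subcluster 0, above the 123 and 140 CPM of homeostatic-microglia-like subcluster 2, while C1qa was higher in subcluster 2 than in subcluster 0. In parenchymal myeloid-like nuclei C3ar1 had 4 and 5 UMIs, or 46.7 and 50.6 CPM, with log2 ratios of lesion over parenchyma of 1.29 (0.09 to 3.34) and 1.35 (0.26 to 3.11), the opposite direction to C1q. C5ar1 had 0 UMIs in the parenchyma of the control-labelled library, which allows up to 35.0 CPM, and 16 UMIs in that of the cKO-labelled library, or 162 CPM (92.6 to 263). The log2 ratio of lesion over parenchyma was -2.18 (-2.86 to -1.31) in the cKO-labelled library, while the 0 parenchymal UMIs of the control-labelled library gave only a lower bound of -0.13, which leaves its direction unset.

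**Figure D3:**
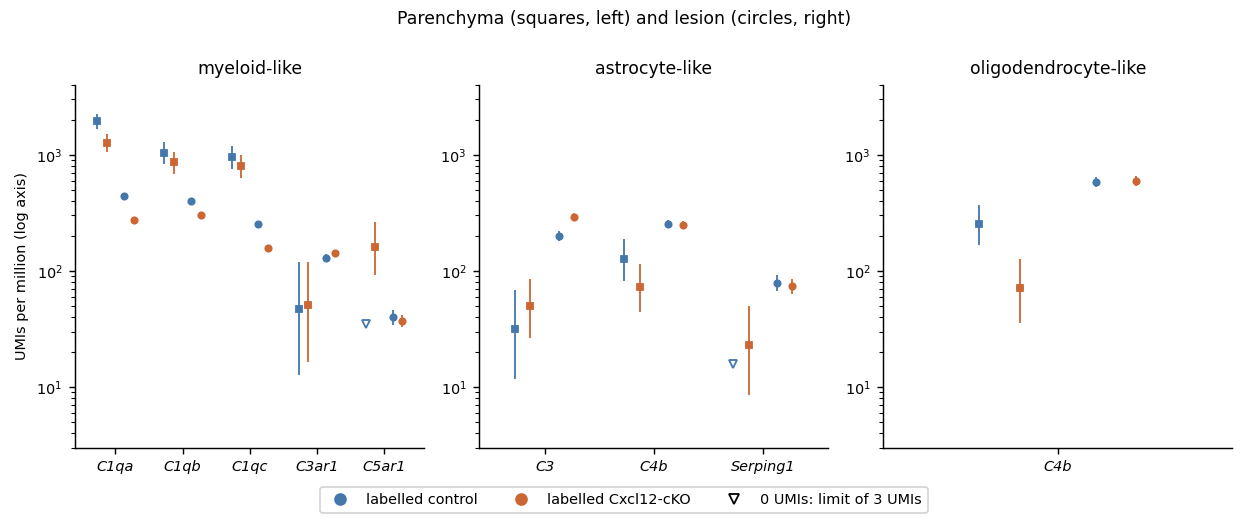
CPM (log axis) in the parenchyma (squares) and lesion (circles) of each library, with 95% Poisson intervals, for the genes with the most UMIs in myeloid-like, astrocyte-like and oligodendrocyte-like nuclei. The C1q genes are lower in the lesion, and C3ar1, C3 and C4b are higher there, on 26 to 47 parenchymal nuclei per group.

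C3, the central component, was a gene of astrocyte-like nuclei. These were 6.6% of lesional nuclei in each library and held 71.3% and 60.5% of lesional C3 UMIs, at 199 CPM (181 to 218) in the control-labelled library and 292 CPM (271 to 313) in the cKO-labelled library. The class also carried markers of oligodendrocyte precursors, whose list summed to 4885 and 4318 CPM beside 6506 and 7540 CPM for the astrocyte list. C3 was seen in 36.3% and 47.2% of these nuclei, and in 0.398% and 0.855% of lesional excitatory neuron-like nuclei, whose depth was greater. In parenchymal astrocyte-like nuclei (38 and 47) it was at 31.7 CPM (11.6 to 69.0) and 49.8 CPM (26.5 to 85.1), on 6 and 13 UMIs. The log2 ratios of lesion over parenchyma were 2.54 (1.52 to 4.11) and 2.497 (1.77 to 3.47), with the lesion higher in both libraries. The parenchymal nuclei were below the minimum of 50, so no call is made.

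Between libraries the log2 ratio of C3 in lesional astrocyte-like nuclei was 0.55 (0.38 to 0.72), just short of the 1.5-fold call. C3 was at 204 and 191 CPM in the control-labelled female and male, 232 CPM in the cKO-labelled female and 356 CPM in the cKO-labelled male. The male of the latter genotype stood above the other 3 mice. Of 7 members with at least 20 UMIs in this class, 1 was called, C1qc on 29 and 20 UMIs, against 15.7% of 12572 genes tested. The medians were -0.08 for the members and -0.04 for all genes. Markers of fibroblasts summed to 916 and 387 CPM and markers of myeloid cells to 564 and 348 CPM in the astrocyte-like nuclei of the control- and cKO-labelled libraries. Mertk alone gave 315 and 145 CPM of the myeloid sums. C1qa and C1qc were also lower in the cKO-labelled library (log2 ratios -0.58 and -0.68), while C1qb was nearly level (-0.08, -0.62 to 0.47). The part of these markers in the C1q values of the class was not tested.

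Fibroblast-like nuclei carried little C3, but its ratio between libraries was the largest of any member in the 3 classes compared. C3 was at 8.05 CPM (6.65 to 9.67) in the control-labelled library, on 115 UMIs, and at 23.8 CPM (21.3 to 26.4) in the cKO-labelled library, on 348 UMIs. The log2 ratio was 1.56 (1.25 to 1.88), a 2.94-fold difference. C3 was the 1 member called of 8 tested in this class, against 9.62% of 16569 genes tested, and the medians were 0.16 for the members and 0.003 for all genes. C3 was seen in 79 of 4164 and 196 of 4084 nuclei, with at most 6 and 15 UMIs in a nucleus.

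The 4 mice again differed within a genotype. C3 in fibroblast-like nuclei was at 5.40 CPM (3.69 to 7.62) in the control-labelled female and 9.85 CPM (7.44 to 12.8) in the control-labelled male. It was at 39.9 CPM (34.7 to 45.8) in the cKO-labelled female and 14.5 CPM (11.7 to 17.9) in the cKO-labelled male. Both cKO-labelled mice stood above both control-labelled mice, but the intervals of the males overlapped, and the log2 ratio was 2.87 between the females and 0.56 (0.06 to 1.07) between the males. The 8 astrocyte markers summed to 1274 and 1365 CPM in the fibroblast-like nuclei of the 2 libraries. All 8 myeloid markers were present at low level, with sums of 189 and 207 CPM.

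The difference was not even across fibroblast states. C3 was at 8.43 and 30.1 CPM in late-inner-like subcluster 0, a log2 ratio of 1.81 (1.23 to 2.49). It was at 5.20 and 19.6 CPM in leptomeningeal-like subcluster 1, a log2 ratio of 1.89 (1.24 to 2.63). In dural-like subcluster 2 it was at 5.87 and 19.7 CPM, a log2 ratio of 1.73 (1.12 to 2.41). With finer subclusters, the dural-like nuclei had only 8 and 10 UMIs of C3, at 2.24 and 4.32 CPM. An unnamed finer subcluster, whose best list was late inner, had 29 and 98 UMIs, at 14.6 and 45.1 CPM. The place of the difference among states thus depended on the clustering. In leptomeningeal-like subcluster 3, led by Dcdc2a, Slc6a13 and Lama1, the levels were 21.2 and 20.3 CPM and the log2 ratio -0.07 (-0.88 to 0.76). Within subcluster 3 the males ran opposite to the females, at 31.7 and 11.9 CPM in the control- and cKO-labelled males against 6.61 and 23.9 CPM in the females, on 2 to 19 UMIs per mouse. A small subcluster led by Cxcl9, Cxcl10 and Rsad2, genes induced by interferon, held 34 and 7 nuclei and had the highest C3, at 54.9 CPM (23.7 to 108) and 305 CPM (158 to 533) on 8 and 12 UMIs.

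**Figure D4:**
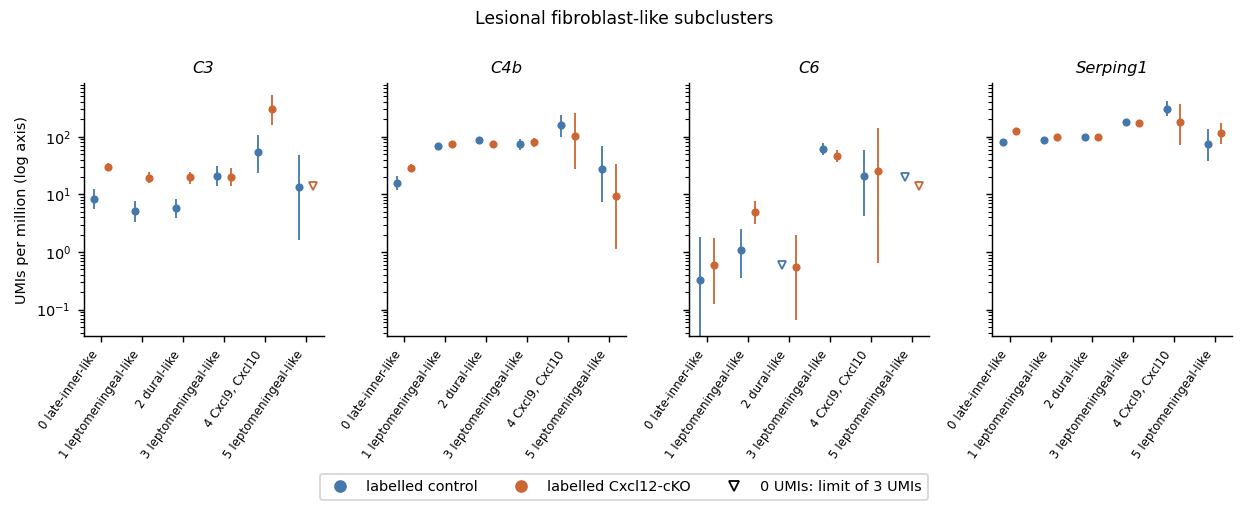
CPM (log axis) of C3, C4b, C6 and Serping1 in 6 lesional fibroblast-like subclusters, by library, with 95% Poisson intervals; open triangles mark 0 UMIs at the level that 3 UMIs would give. C3 is higher in the cKO-labelled library in subclusters 0, 1 and 2 but not 3, and C6 is highest in subcluster 3.

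C4b, the mouse C4 gene of the classical pathway, was led by oligodendrocyte-like nuclei. It was at 584 CPM (525 to 649) and 599 CPM (543 to 659) there in the control- and cKO-labelled libraries, and 77.0% and 80.6% of nuclei had a UMI. Astrocyte-like nuclei followed at 255 CPM (234 to 276) and 247 CPM (228 to 267). Then came cluster 6, an unnamed cluster led by Bcas1, Enpp6 and Neu4, at 122 and 110 CPM, and fibroblast-like nuclei at 65.6 and 58.2 CPM. Among classes of at least 50 nuclei per library these were the highest, and their intervals did not overlap from one step to the next in either library. The largest share of C4b UMIs came from fibroblast-like nuclei, with 42.3% and 38.9% of the lesional total and 51.4% and 51.5% of lesional nuclei. C4b has a near-identical neighbour, C4a, so reads that could not be assigned to 1 of the genes may be missing from its counts.

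In oligodendrocyte-like nuclei of the parenchyma (26 and 30 nuclei), C4b was at 254 CPM (166 to 372) and 70.9 CPM (35.4 to 127), on 26 and 11 UMIs. The log2 ratios of lesion over parenchyma were 1.18 (0.63 to 1.84) and 3.02 (2.23 to 4.09). In astrocyte-like nuclei they were 0.98 (0.42 to 1.66) and 1.73 (1.11 to 2.51), with 127 and 72.7 CPM in the parenchyma. C4b was higher in the lesion in both glial classes and both libraries. These parenchymal groups were below the minimum of 50 nuclei, so the values are given without a call. In the 4 mice the lesional oligodendrocyte-like level ran from 544 to 704 CPM and the astrocyte-like level from 249 to 276 CPM, and the genotypes overlapped in both.

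Between libraries C4b was called only in myeloid-like nuclei among the 3 classes compared, with 42.3 CPM (36.7 to 48.5) in the control-labelled library and 25.8 CPM (22.2 to 29.8) in the cKO-labelled library, a log2 ratio of -0.71 (-1.01 to -0.42). The mice did not share that direction. C4b was at 61.1 and 22.2 CPM in the control- and cKO-labelled females and at 15.7 and 26.9 CPM in the males. In the whole class C4b was highest in border-associated-macrophage-like subcluster 3, at 156 CPM (112 to 211) and 214 CPM (143 to 308), a subcluster that made up 6.76% and 2.82% of the myeloid-like nuclei. In fibroblast-like subcluster 0, late-inner-like, C4b was low in both libraries but higher in the cKO-labelled one, at 15.9 CPM (11.8 to 21.0) and 29.1 CPM (24.5 to 34.2). The other large fibroblast-like subclusters were at 69.6 to 88.5 CPM.

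**Figure D5:**
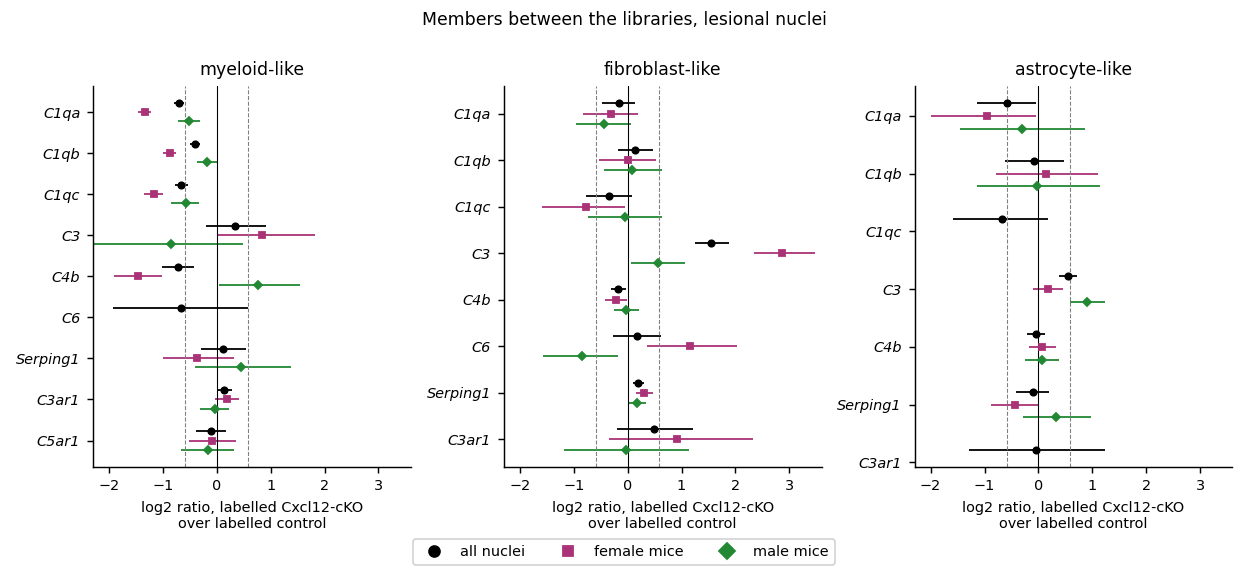
Log2 ratio of the cKO-labelled over the control-labelled level for the members with at least 20 UMIs, in all lesional nuclei of a class and in those of the female or male mice, with 95% exact intervals; dashed lines mark 1.5-fold, and mouse values under 20 UMIs are not drawn. C3 stands out in fibroblast-like nuclei and the C1q genes in myeloid-like nuclei, with larger differences between the females; the male interval of C3 in myeloid-like nuclei runs past the left edge.

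C6, a terminal component, was rare and found mostly in leptomeningeal-like fibroblast nuclei. All lesional nuclei together held 101 and 111 UMIs of C6, of which 81.2% and 85.6% were in fibroblast-like nuclei. Leptomeningeal-like subcluster 3 held 73 of 82 and 68 of 95 fibroblast UMIs, in 42 of 381 and 44 of 471 nuclei. Its levels were 62.0 CPM (48.6 to 77.9) and 46.1 CPM (35.8 to 58.4). The finer clustering spread C6 over several leptomeningeal-like subclusters. The subcluster led by Dcdc2a and Lama1 had 51 and 28 UMIs, and that led by Dach1 and Slc16a12 had 23 and 40. A further subcluster, led by Slc6a20a and Ranbp3l, had 3 and 18. The finer subcluster with the most C6 UMIs thus differed between the libraries. In dural-like subcluster 2, C6 had 0 UMIs among 1249 control-labelled nuclei, which allows up to 0.587 CPM, and 2 UMIs among 947 cKO-labelled nuclei. In leptomeningeal-like subcluster 1 it was at 1.08 and 4.95 CPM. Border-associated-macrophage-like nuclei had 10 and 2 UMIs of C6, at 37.1 CPM (17.8 to 68.2) and 14.8 CPM (1.79 to 53.4).

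Between libraries C6 in fibroblast-like nuclei was at 5.74 CPM (4.57 to 7.13) and 6.49 CPM (5.25 to 7.93), and its log2 ratio of 0.17 (-0.27 to 0.62) was not called. The mice pointed in opposite directions. C6 was at 3.37 and 7.60 CPM in the control- and cKO-labelled females, and at 8.80 and 4.85 CPM in the males.

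Serping1, which encodes the C1 inhibitor, was widespread among stromal nuclei. Fibroblast-like nuclei held 76.3% and 81.4% of its lesional UMIs, at 100.2 CPM (95.1 to 106) and 115 CPM (109 to 120). Osteoblast-like nuclei were at 95.4 CPM (76.6 to 117) and 85.0 CPM (50.4 to 134), and astrocyte-like nuclei at 78.8 CPM (67.6 to 91.3) and 73.4 CPM (63.2 to 84.8). Mural-like nuclei, only 49 and 19, had 35 and 7 UMIs, at 291 CPM (203 to 405) and 138 CPM (55.6 to 285). The intervals of fibroblast-like and osteoblast-like nuclei overlapped in both libraries. Myeloid-like nuclei were far lower, at 16.7 and 18.1 CPM, and within them 65 of 80 and 93 of 127 UMIs were in subcluster 4, whose leading genes were fibroblast genes and of whose nuclei 28.6% and 33.2% had UMIs of both sexes.

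Serping1 was present in every fibroblast state. Leptomeningeal-like subcluster 3 had 180 CPM (157 to 206) and 171 CPM (150 to 193), and subclusters 0, 1 and 2 had between 82.4 and 124 CPM. The small subcluster led by Cxcl9 and Cxcl10 stood higher, at 309 and 178 CPM, on 45 and 7 UMIs. The log2 ratio between libraries was 0.19 (0.09 to 0.30) in all fibroblast-like nuclei, not called, with 111 and 137 CPM in the control- and cKO-labelled females and 93.3 and 105 CPM in the males. Of the 4 largest subclusters the ratio was largest in late-inner-like subcluster 0, at 82.4 and 124 CPM, a log2 ratio of 0.59 (0.38 to 0.80). In dural-like subcluster 2 it was 97.3 and 97.5 CPM. In parenchymal fibroblast-like nuclei (51 and 49) Serping1 was at 62.6 CPM (34.2 to 105) and 99.3 CPM (61.5 to 152).

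Levels of the members were compared over 18 lesional groups in both libraries, 36 points that share their library, depth and reference. Over these points the 3 C1q genes were alike, with Pearson r of log2(CPM + 1) between 0.96 and 0.98, and C3ar1 and C5ar1 had r of 0.92 with each other and 0.87 to 0.92 with the C1q genes. C3 and C4b had r of 0.60. Serping1 ran weakly opposite to the myeloid members (r from -0.29 to -0.44). The genes outside the complement lists that were most like C1qa were Ctss, Trem2 and Apoe (r 0.93, 0.93 and 0.92). For C1qb they were Trem2, Ctss and Mpeg1 and for C1qc Ctss, Apoe and Mpeg1. C3 was most like Gfap, the intermediate filament of reactive astrocytes, with r of 0.77, then Chil1 and Mt1. Serping1 was most like Fgfr1, Lama2 and Pawr (r 0.95, 0.94 and 0.93), C3ar1 like Lilrb4b and Btk, among others, and C5ar1 like Fcgr2b, Ctsb and Nfam1. C4b was most like Trp53bp2, Frmd8 and Stxbp3 (r 0.77, 0.76 and 0.74), and C6 like Rad51b, Enpp1 and Mcoln2 (r 0.61, 0.59 and 0.57).

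A wider list of 45 complement genes gave the surroundings of these members. It held the classical proteases, the alternative and lectin pathways, terminal components, regulators and complement receptors. In myeloid-like nuclei 25 were tested with at least 20 UMIs, and 0 were called higher and 3 lower (C1s1, Cd55 and Cr2, on 21 to 50 UMIs each), against 10.7% of all genes tested. In fibroblast-like nuclei 30 were tested, with 1 called higher (Hc, which encodes C5, with 28 and 56 UMIs) and 1 lower (Cr2, a complement receptor of B cells, with 53 and 26 UMIs), against 9.62% of all genes. In astrocyte-like nuclei 17 were tested, with 3 called higher (C1ra, Cfp and Cd59b, on 35 to 54 UMIs each) and 3 lower, Csmd3 and Itgam among them, against 15.7% of all genes. C1s1, C1ra and Cd59b each have a near-identical copy, so their counts are uncertain. The medians of the list were -0.004, 0.01 and -0.06 in the 3 classes, beside -0.02, 0.003 and -0.04 for all genes.

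Genes of the list with many UMIs were spread over several classes. Colec12, a scavenger receptor that binds carbohydrate, was at 515 and 568 CPM in fibroblast-like and 377 and 421 CPM in myeloid-like nuclei. Cr1l, a membrane regulator of C3 and C4, was at 93.0 and 93.4 CPM in fibroblast-like nuclei. Itgam, a subunit of complement receptor 3, was at 215 and 181 CPM in myeloid-like nuclei.

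The large membrane proteins of the Csmd family, known as complement regulators in the nervous system, were read mainly from neuronal and glial nuclei. Csmd1 was not limited to them. The fibroblast-like class held 11136 and 15068 lesional UMIs of Csmd1, or 780 and 1029 CPM. This was more than the 492 and 559 CPM of the oligodendrocyte-like class. The myeloid-like class stood at 353 and 402 CPM. In lesional excitatory neuron-like nuclei Csmd1 was at 7146 and 7573 CPM, Csmd2 at 865 and 928 CPM and Csmd3 at 997 and 842 CPM. Astrocyte-like nuclei are described here because they were among the 3 classes compared. Csmd1 was at 5948 and 8783 CPM there, a log2 ratio of 0.56 (0.53 to 0.59), and Csmd3 at 387 and 244 CPM, a log2 ratio of -0.67 (-0.82 to -0.52) that was called. Csmd2 was at 142 and 158 CPM. C2, the protease that pairs with C4, was at 47.5 and 48.1 CPM in fibroblast-like nuclei and at 11.7 and 11.0 CPM in myeloid-like nuclei. Cd46 was at 68.9 and 67.0 CPM in fibroblast-like and 69.1 and 55.4 CPM in astrocyte-like nuclei, and Clu, a secreted regulator of the terminal complex, at 102 and 92.5 CPM in astrocyte-like nuclei. None of these 3 genes was called.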

How the data were processed

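The authors deposited filtered matrices of UMI counts, 1 per region and library, made with Cell Ranger 9.0.0 on GRCm39 per the labels; the values were whole-number counts with no normalization. Groups came from the labels.

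Barcodes were dropped if they lay in either 2.5% tail of UMIs or genes, or in the top 2.5% tail of mitochondrial UMIs (1746 barcodes). Nuclei were clustered with 3000 variable genes, 30 components, 20 neighbours and Leiden resolution 0.25 (scanpy 1.11.5, igraph 0.11.9, scipy 1.17.1), leaving out 76 genes, the complement genes among them. Clusters were named from marker lists; thresholds for a name were chosen with the clusters in view. Lesional fibroblast-like and myeloid-like nuclei were clustered again. Scrublet marked 2 and 18 barcodes and had not worked, so doublets were kept in the main analysis.

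UMIs were summed per group and library. Levels have exact Poisson intervals, shares Clopper-Pearson intervals, and ratios (0.5 added to each sum) exact conditional binomial intervals, at 95%; a count of 0 was bounded by 3 UMIs per group. UMI intervals cover counting error only. Genes with at least 20 UMIs over both libraries were tested for a change of at least 1.5-fold, a rule of size with no p-value, since each genotype had 1 library. The rule was tested on simulated data. Named genes were all 9 members; of the wider list, the 10 with the most UMIs in the 3 classes and those past 1.5-fold with at least 100 UMIs; and for each member the 3 genes with the highest Pearson r among genes with at least 500 lesional UMIs. Some of these genes are not reported here. Called genes of the wider list under 100 UMIs were named after their values were seen. The members and lists were chosen with earlier results of these data known.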

Additional observations from a re-analysis of the deposited data

Results flagged for a closer look

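C4b in lesional myeloid-like nuclei went opposite ways in the females and the males. The log2 ratio of cKO-labelled over control-labelled levels was -1.45 (-1.90 to -1.02) between the females and 0.76 (0.04 to 1.55) between the males, a difference of -2.22 for females minus males. C6 in lesional fibroblast-like nuclei did so as well, with 1.15 (0.36 to 2.03) between the females and -0.85 (-1.56 to -0.18) between the males, a difference of 2.00. Each sex of a genotype was 1 mouse, so these differences were not tested and mouse and sex cannot be told apart. The values rest on 20 to 50 UMIs per mouse for C6 and 24 to 116 for C4b.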

How the results depend on the processing

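No paired analysis was possible because each genotype had 1 library, in which 1 male and 1 female mouse were pooled. Single mice served in place of leaving out a replicate. The number of members past 1.5-fold was 4 in myeloid-like, 1 in fibroblast-like and 1 in astrocyte-like nuclei. In myeloid-like nuclei it was 2 with no removal of barcodes, in the male mice, as a mean over nuclei and without the monocyte-like subcluster, and 0 at 2-fold. In the male mice the 2 were C3, lower on 13 and 8 UMIs, and C4b, higher, so that none of the 4 members called in all nuclei was called there in the same direction. The median log2 ratio of members was -0.62 there in the female mice. In fibroblast-like nuclei the number was 2 with each nucleus classed by its own markers or with no UMI minimum, and 4 in the female mice. In astrocyte-like nuclei it was 2 with no removal of barcodes, without nuclei bearing UMIs of both sexes or with no UMI minimum, and 0 by own markers, as a mean over nuclei, at a minimum of 50 UMIs or at 2-fold. The ratio of C4b in myeloid-like nuclei turned to 0.76 in the male mice, and that of C1qc in astrocyte-like nuclei to 0.070 as a mean over nuclei. Of 290 recomputed log2 ratios between libraries, 257 were counted as the same within their error, 31 as moved and these 2 as reversed. Some ratios that were not called in all nuclei also changed sign in the male mice. Among them were C6 in fibroblast-like nuclei (-0.85) and C3 in myeloid-like nuclei (-0.86). The cause was not tested. C3 in fibroblast-like nuclei ranged from 0.56 to 2.87, with the males and females at the ends. The alternatives without a subcluster and with fewer parenchymal nuclei were chosen after seeing the data. With finer subclusters (resolution 0.5) the highest level of a member among subclusters moved beyond its interval in 12 of 18 cases, and thinning lowered all 18 shares of nuclei with a UMI. Few UMIs stand behind C6 and C5ar1, and 26 to 51 nuclei behind the parenchymal myeloid-like, glial and fibroblast-like values.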
